A study of Mus musculus with 12 samples.

Results

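Short stretches of the mouse genome that hold a single small tRNA gene were followed through 12 ChIP-seq libraries of mouse liver. The members are covered stretches of 368 to 378 bp, that is, a gene of 68 to 78 bp with 150 bp on each side, on 13 chromosomes that were chosen by number, after 8 stretches named for exclusion had been taken out. Apart from those 8, which were named one by one, position and length chose the members, and 74 of the 532 stretches in the files qualified. A cloverleaf, the folded form of a tRNA, could be predicted in 73 of the 74, with genes of 71 to 74 bp, 29 anticodons and 18 amino acids, led by Lys with 13 members, Ala with 8 and Glu with 7. The remaining stretch, chr15:69226903-69227274, held no gene that the search accepted. These tRNA names are predictions, read from the predicted anticodon alone, and need not give the family of a gene. All coordinates are mm9, 1-based, with both flanks included.

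The working description of these genes as lying outside clusters held only in part. 48 members had no other covered stretch within 5000 bp, and 26 did. 24 of the members formed 7 groups among themselves, the largest being 5 genes on chromosome 5 between 125884470 and 125890063. By the protein-coding genes of the GENCODE vM1 annotation, 65 members were intergenic, 9 lay in introns and 0 in exons. Genes of other types were not used, neither here nor for the distances to an annotated start given below.

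RNA polymerase III (Pol III) makes tRNAs, 5S rRNA and other short RNAs. A tRNA gene carries its promoter inside the transcribed sequence: the factor TFIIIC binds an A box in the D arm and a B box in the T arm, and recruits TFIIIB just upstream, which in turn places Pol III over the start. Pol III ends transcription at a run of T residues a few bases behind the gene. A mammalian genome holds several copies of most tRNA genes, and also many tRNA-like sequences, among them those of short interspersed repeats, that need not be transcribed.

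The 6 groups had 2 libraries each, all from liver. The mice were C57/BL6 males, 12 to 14 weeks old at death, with no stated transgene. The labels give a schedule of 12 h of light for 2 weeks, shared by all groups. The mice were fed only in the dark phase (Zeitgeber time 12 to 24 h) for 7 days, and 5 were killed at each of the times 2 h and 26 h. The immunoprecipitated groups were RPC1, the largest Pol III subunit and part of its active centre, RPC4, a smaller Pol III subunit, RPB2, the second largest subunit of the enzyme that makes mRNA (Pol II), and a pair of histone mark groups. The histone groups are called H3K4-titled and H3K36-titled, because titles and track headers name one mark and the antibody field names the other. Trimethylation of H3K4 is known for active promoters and that of H3K36 for the bodies of genes that Pol II transcribes. All were set against input, chromatin without immunoprecipitation. Neither the time of each replicate nor any pooling of mice is stated, so p-values measure only the spread between libraries, pooled over groups. No defining liver genes were covered by the stretches, so the tissue could not be checked.

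Values are mean coverage, the number of reads over an average base of a stretch. On a member of median length, 372 bp, a coverage of 1 equals 4.89 reads of 76 bp, and 3 reads, the limit that a value of 0 allows, equal a coverage of 0.613. The reads come from PCR and carry no molecular identifiers, so that this limit covers counting error only. The members held 17097, 12173, 22594 and 24532 such read equivalents in the RPC1 and RPC4 libraries, 1706 and 1579 in RPB2, 2153 and 3204 in H3K4-titled, 139 and 82.8 in H3K36-titled, and 375 and 365 in input. The H3K36-titled and input values of a single member therefore rest on a few reads.

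The sequences below belong to members with an identical or near-identical gene and very different Pol III coverage. The first set is one tRNA-Glu(TTC) gene, identical in 3 members, followed by the 25 bases behind it at each place. Capitals mark the B box in the gene and the run of T residues behind it. All were read from the NCBIM37 (mm9) reference in the direction of the tRNA. The places are chr14:76552431-76552802 (plus strand), chr7:65654535-65654906 (plus strand) and chr9:104310847-104311218 (minus strand).

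tRNA-Glu(TTC), all 3 places: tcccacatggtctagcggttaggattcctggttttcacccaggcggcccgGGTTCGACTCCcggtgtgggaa

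behind the gene on chromosome 14: cgccaatatcTTTTagaataaagac

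behind the gene on chromosome 7: cagcagcTTTTTTTTTTTTTTTctt

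behind the gene on chromosome 9: acacaagatctttagctggctgctg

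The next set is one tRNA-His(GTG) gene, identical at chr2:122201080-122201451 and chr4:82265377-82265748 (both minus strand), where the run of T residues has the opposite relation to occupancy.

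tRNA-His(GTG), both places: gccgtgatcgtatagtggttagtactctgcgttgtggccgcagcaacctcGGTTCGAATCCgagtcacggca

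behind the gene on chromosome 2: attgtggcaacaatggcacggcaag

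behind the gene on chromosome 4: aggaattgaggaggcTTTTggaaga

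The last set is a pair of near-identical tRNA-Thr(AGT) genes, at chr7:36019639-36020012 and chr14:59436840-59437213 (both minus strand). The substitutions from the chromosome 7 to the chromosome 14 gene, counted from 1 at the 5′ end, are G4A and C62T, and the second falls in the B box.

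tRNA-Thr(AGT), chromosome 7: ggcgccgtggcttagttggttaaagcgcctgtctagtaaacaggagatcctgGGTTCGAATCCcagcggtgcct

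behind the gene on chromosome 7: tgagtgctaccTTTTcttctttttt

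tRNA-Thr(AGT), chromosome 14: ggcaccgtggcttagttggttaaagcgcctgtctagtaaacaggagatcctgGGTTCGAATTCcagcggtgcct

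behind the gene on chromosome 14: tgagtgcttgcgctctactttatgg

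The first comparison asked which of the short tRNA genes Pol III occupies in liver. The members split into a loaded set and a set that was not called above input. With each library divided by its background level, the trimmed mean over 102 stretches with the lowest Pol III coverage, 25% of those outside the member list once 50 stretches of 5S rRNA genes had been set aside, limma called Pol III above input (adjusted p under 0.05, Benjamini-Hochberg over all 532 stretches) at 38 of the 74 members and below input at 0. At this rule 66.7% of all stretches were above and 0.188% below, and 51.4% of the members were above, against 317 of the 458 stretches outside the list (69.2%). Among others of the same length with a predicted gene the share was 54.5%, and with file totals as scale it was 37.8% of the members, against 27.1% of all others. An unadjusted p under 0.05 was found at 38 members as well. The 38 are called occupied from here on.

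Mean Pol III coverage over the 4 libraries was 7.08 to 294 at the occupied members (median 97.5), against 0.323 to 3.77 at the others (median 0.845). The last occupied member, with 7.08, and the first member below it, with 3.77, differed by a factor of 1.88, with 16.4 and 2.90 as the next values on either side. Over the 36 unoccupied members together, the Pol III libraries held 156, 141, 182 and 239.7 read equivalents, against 175 and 175 in the input libraries. These sums are not scaled for depth. Divided by each library's background level, mean coverage of the unoccupied members was 1.20 and 1.28 in RPC1 and 1.20 and 1.46 in RPC4, against 1.29 and 1.00 in input. Over the unoccupied members as a set, Pol III coverage was thus of the size of input coverage. For most of them a small excess at a single member was not detectable at this depth. 2 unoccupied members lay above both input libraries in all 4 Pol III libraries, tRNA-His(GTG) on chromosome 4 (log2 difference 1.51, SE 0.73, limma adjusted p = 0.0846) and tRNA-Lys(TTT) on chromosome 7 (1.29, SE 0.66, limma adjusted p = 0.101). Both were called above input, 40 members in all, in the fit of the groups compared, with the 10% background share, with coverage as deposited, with array weights and without either H3K4-titled library.

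**Figure D1:**
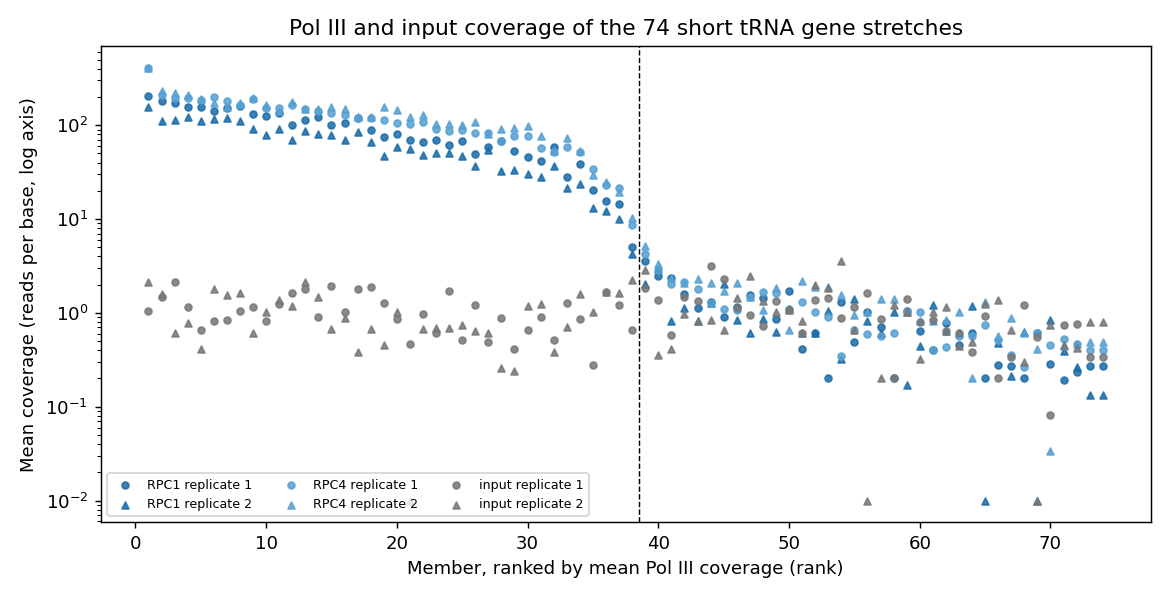
Mean coverage (reads per base, log axis, 0 drawn at 0.01) of the 74 members in each RPC1, RPC4 and input library, ranked by mean Pol III coverage. The dashed line parts the 38 occupied members, down to a mean of 7.08, from the other 36, which reach up to 3.77 and mostly overlap the input values.

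The highest member was tRNA-Ala(AGC) at chr5:31190738-31191110, 107 bp from the annotated start of Agbl5 and 44 bp from another covered stretch. Its coverage was 204 and 155 in RPC1 and 406 and 411 in RPC4 libraries, against 1.05 and 2.14 in input. Its log2 difference from input was 7.22 (SE 0.31, limma adjusted p = 3.97e-11), and every Pol III library lay far above both input libraries. Alanine tRNAs with this anticodon read the GCC, GCU and GCA codons after their first base is modified to inosine.

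Next came tRNA-Met(CAT) at chr15:57807388-57807760, with 180.2 and 111 in RPC1 and 209 and 232 in RPC4, against 1.48 and 1.57 in input. A tRNA-Asp(GTC) at chr10:90644692-90645063 had a mean of 176, the tRNA-Thr(AGT) on chromosome 7 printed above 170.01, and a tRNA-Gly(CCC) at chr17:26011883-26012253, 306 bp from the start of 0610011F06Rik, 161. The other members of the first 10 were 2 tRNA-Asn(GTT) genes, tRNA-Thr(CGT), the tRNA-Glu(TTC) on chromosome 14 and a second tRNA-Asp(GTC), at 130.1 to 159. The 10 covered 7 amino acids, so no one amino acid held the top.

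The isoacceptor families, the genes for one amino acid by predicted anticodon, were mixed. Occupied were 7 of 13 Lys members, 4 of 8 Ala, 3 of 7 Glu, 4 of 5 Asp, 3 of 5 Thr, 3 of 4 Phe, 3 of 4 Pro, 1 of 4 Ile, 0 of 4 Leu, 2 of 3 Asn, 1 of 3 Gly and 1 of 3 Cys. Both Arg members and the only Gln member were occupied, 1 of 2 each for His, Met and Trp, and the only Val member was not. The 4 Leu members had 0.323 to 0.680 reads per base, and 3 of them were one identical sequence with over 74.9% of its Pol III-covered bases at fractional values. Fractional values mark reads that were divided among places. These tallies count predicted anticodons and not descent. The Leu(AAG) sequence shares long runs of bases with tRNA-Pro(TGG), Leu(CAA) with tRNA-Lys(CTT), and Ala(CGC) with tRNA-Glu(CTC). Such members may be changed copies from other families, so 0 of 4 for Leu does not describe a Leu family.

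Sequence features that the choice of members did not use were then set against occupancy, as counts without a test. A run of at least 4 T residues (TTTT) within 25 bp behind the gene was found at 35 of 38 occupied members, against 17 of 35 unoccupied members with a predicted gene. A stem count of 21, the most that the 4 cloverleaf stems can have, was found at 31 of 38, against 9 of 35, and counts of 19 or fewer at 0 of 38, against 16 of 35. An exact B box (GGTTCGA, any 2 bases, then CC, on the strand of the gene) was found at 24 of 38, against 12 of 35. Its first to last base lie in the T arm, so that it and the stem count share bases.

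Read the other way, 52 members had the T run and 35 of them (67.3%) were occupied, against 3 of 21 without it (14.3%). With 21 stem pairs 77.5% of 40 members were occupied, against 21.2% of 33 with 17 to 20 pairs. With the exact B box 66.7% of 36 were occupied, against 37.8% of 37 without. Of the 22 members with all 3 features 20 were occupied, of the 23 with a pair of them 13, of the 16 with a single one 4, and of the 12 with none 1. The occupied share was thus 90.9, 56.5, 25 and 8.33%, lower with each feature that was missing. In the 242 other stretches of this length it was 68.6, 59.3, 37.8 and 0%, a difference that was not tested. The combination was put together after these values had been seen and is a description only.

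The B box was rarely far from its consensus even where Pol III was not called above input. A window with at most 1 mismatch was found at 34 of 38 occupied members, against 27 of 35 unoccupied ones. The gene search itself favoured TTC in the T arm, bases that lie inside the B box, so part of this closeness was built in. The exact A box (TGGC, any 2 bases, then AGTGG) was too rare to compare the classes. It was found at 1 occupied and 1 unoccupied member, and 0 members had it overlapping the B box. The pattern allowed no other base or spacing, so a gene without it may still hold an A box. On the opposite strand of the gene the exact B box was found at 1 member and the exact A box at 0. Among the 242 other single-gene stretches of the same length, 51.2% held the exact B box, 0.413% the exact A box, 81.4% the T run and 66.1% had 21 pairs, against 49.3%, 2.74%, 71.2% and 54.8% of the members.

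In those 242 other stretches the same features went with occupancy to a different extent. Pol III was above input at 72.6% with the exact B box, against 35.6% without, and at 58.4% with the T run, against 37.8% without. With 21 pairs it was above input at 56.2%, against 51.2% with fewer. The stem count therefore stood apart among the members and hardly among the other stretches, a difference that was not tested.

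**Figure D2:**
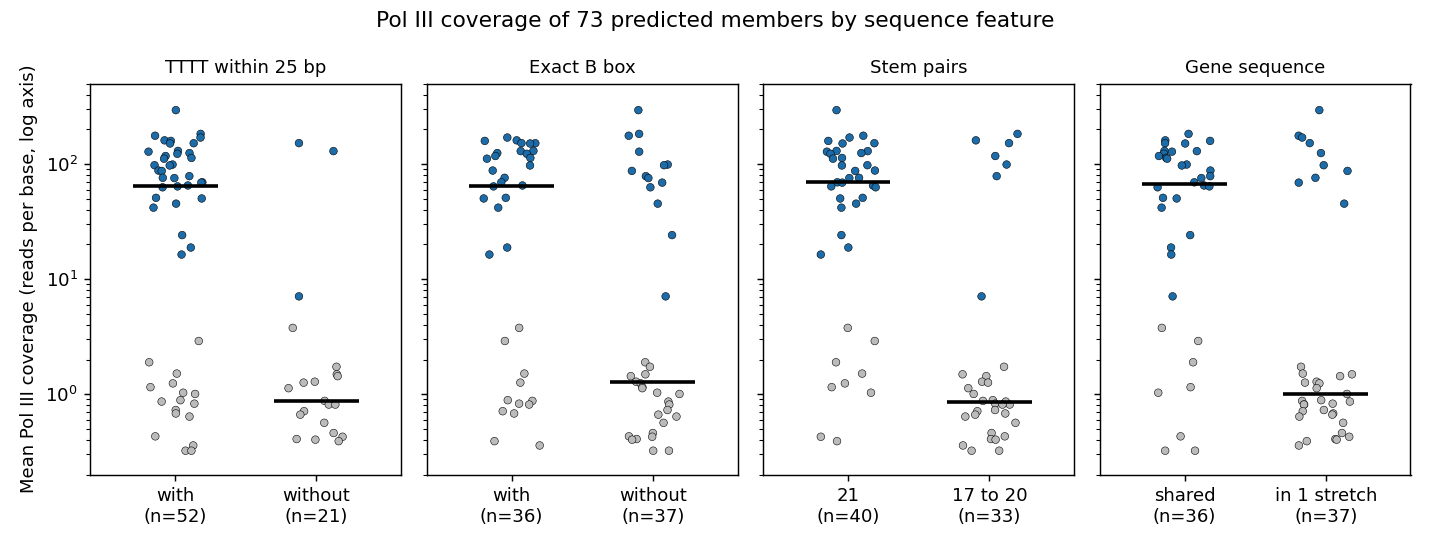
Mean Pol III coverage (reads per base, log axis) of the 73 members with a predicted gene, by the T run behind the gene, the exact B box, the number of stem pairs and whether the gene sequence occurs in more than 1 stretch. Blue points are occupied and grey ones are not, and bars are medians. Of the 21 members without a T run, 3 are occupied.

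A gene sequence that recurred elsewhere in the files was also common among occupied members. 28 of 38 occupied members shared their exact gene sequence with another stretch, against 8 of 35 unoccupied ones. Reads from repeated sequences can be divided or misplaced, and over 10% of bases were fractional at 13 occupied members, against 14 unoccupied ones. With all stretches over that limit left out, limma called 25 of the 47 remaining members, all of them among the 38.

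Surroundings differed as well. The 150 bp upstream of the gene held a median of 4 CpG sites at occupied members (range 0 to 22), against 1 (range 0 to 4) at the unoccupied ones. 0 of the 38 occupied members lay in an intron, against 9 of the 36 others, whereas 10 of 19 intronic stretches among the 242 others of this length were occupied. The median distance to the nearest annotated gene start was 12096 bp at occupied members and 40155 bp at the rest. In 5 of the 7 groups all members had the same state. All 5 members of the group on chromosome 5 were occupied (50.2 to 151), as were all 4 of chr17:23683293-23687452 (65.1 to 124.6), whereas 0 of the 3 of chr9:104302300-104311218 were (1.03 to 3.77). Of the 26 members with another stretch within 5000 bp 21 were occupied, against 17 of the 48 without.

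Members with an identical gene have the same internal promoter at different places. There were 11 such sets, with 27 members, and the highest and lowest mean Pol III coverage differed by over 10 times in 3 of them. In 7 sets every member was occupied.

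The largest difference was at tRNA-His(GTG). The chromosome 2 place had 134 and 91.2 in RPC1 and 153 and 141 in RPC4 libraries, against 2.48, 2.92, 2.85 and 3.35 at the chromosome 4 place, which lies in an intron of Nfib, the gene of a transcription factor. The ratio of the means was 44.7, and in single libraries it was 31.3 to 54.0. Input was 1.23 and 1.38 on chromosome 2 and 1.38 and 0.352 on chromosome 4, where Pol III was low but above input in every library. The occupied place is the one with no T run in the 25 bp behind it.

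The tRNA-Glu(TTC) set behaved alike with the T runs reversed. Mean Pol III coverage was 152 ± 28.0 on chromosome 14 and 123 ± 29.6 on chromosome 7 (SD, n = 4 libraries each), both with a T run, and 3.77 ± 1.35 on chromosome 9 without one. The chromosome 9 gene was not called above input (log2 difference 0.68, SE 0.47, limma adjusted p = 0.232). It lies beside a pair of unoccupied tRNA-Cys(GCA) genes. One of these, chr9:104306236-104306607, is identical to the gene at chr17:71948461-71948832, and Pol III coverage was 24.1 ± 9.23 on chromosome 17, against 1.03 ± 0.591 on chromosome 9 (SD, n = 4 each). Both of these Cys genes are followed by a T run, so that it did not part them.

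Flanking coverage, which reads inside the shared gene cannot supply alone, gave the same picture. Pol III coverage of the 5′ and 3′ flanks was 164 and 38.5 at the chromosome 2 His gene, against 1.83 and 0.404 at the chromosome 4 one. At the Glu gene it was 167 and 100.2 on chromosome 14, 147 and 69.8 on chromosome 7, and 2.03 and 3.10 on chromosome 9. The reverse caution holds for 2 tRNA-Lys(CTT) genes at chr17:23670779-23671151 and chr17:23672149-23672521, where 42.2% of bases were fractional, so that their means of 18.8 and 16.4 are not independent.

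**Figure D3:**
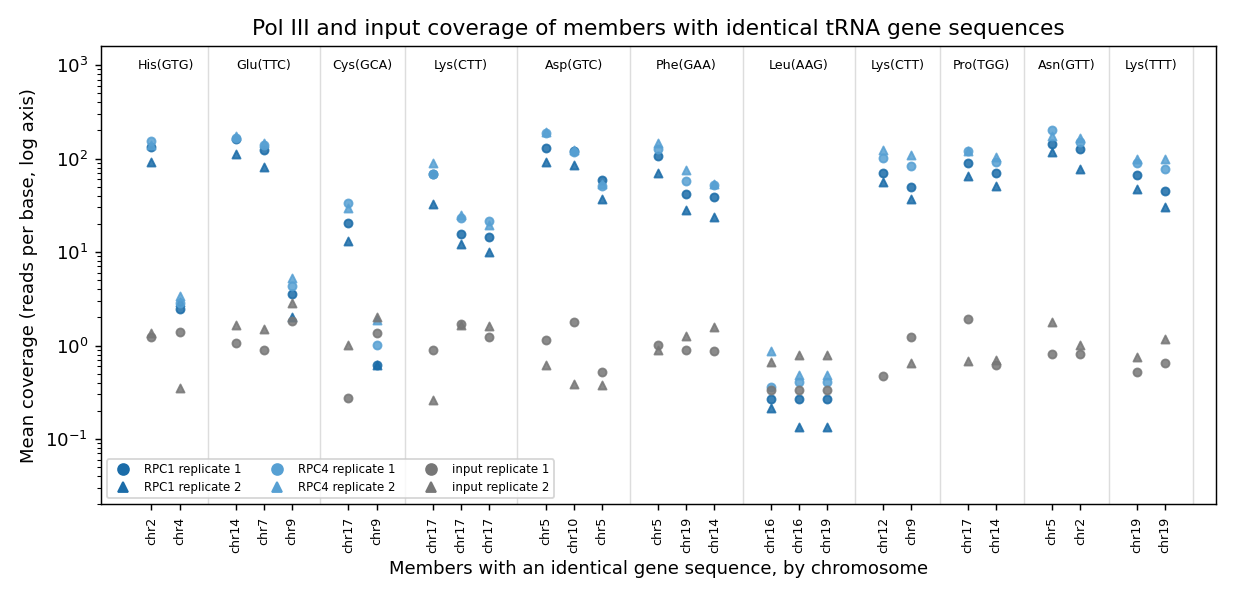
Mean coverage (reads per base, log axis) in each RPC1, RPC4 and input library of the 27 members that share an identical gene sequence with another member, in 11 sets ordered by the ratio of highest to lowest. In the first 3 sets, His(GTG), Glu(TTC) and Cys(GCA), 1 place was not called above input, with means of 2.90, 3.77 and 1.03 reads per base, while another holds 24.1 or more.

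Differences as large were seen between genes a few substitutions apart. The tRNA-Thr(AGT) gene on chromosome 7 had 155, 123, 193 and 209 in the RPC1 and RPC4 libraries, against 0.203, 0.628, 0.265 and 0.610 at the chromosome 14 gene, which differs by G4A and C62T and also lacks the T run. A tRNA-Phe(GAA) at chr19:12082885-12083257 differs by C3T and G70A from the occupied Phe gene of the same group at chr19:12076576-12076948, and has the exact B box, 21 pairs and a T run. The neighbour had 41.8, 28.2, 57.5 and 76.1, against 1.12, 0.815, 1.79 and 2.32 at this gene. The gene is 1 of the 2 members with all 3 features that were not occupied, and the other is the tRNA-His(GTG) gene on chromosome 4.

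The kind of substitution was uneven. For 10 unoccupied members an occupied member of the same name and length differed by 1 to 5 bases, and the nearest such relatives gave 30 substitutions, counted from the occupied to the unoccupied gene. 12 were C-to-T and 12 G-to-A changes, 0 were T-to-C or A-to-G, and 6 were of other kinds. These pairs were chosen after occupancy was known, and no test was made. A single one, T16G, parted the tRNA-Cys(GCA) gene on chromosome 17, with a Pol III mean of 24.1, from the other Cys gene of the chromosome 9 group, chr9:104302300-104302671, with 1.15. In the Phe pair C3T and G70A lie on both sides of one pair of the acceptor stem, which stays paired. The same holds for C4T and G69A in tRNA-Lys(TTT) at chr7:29578857-29579229, whose occupied relatives on chromosome 19 had Pol III means of 75.6 and 62.8, against 1.89 at this gene.

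The second comparison asked whether Pol II lies at these genes. RPB2 was above input at 33 of 74 members and below at 0 (38.3% and 0% of all stretches). Of the occupied members 32 of 38 were above, against 1 of 36 unoccupied ones. Mean RPB2 coverage of the occupied members was 8.37 and 7.71 in the 2 libraries, against 0.833 and 0.806 at the others, while input was 1.07 and 1.02, against 0.989 and 0.994. The median log2 level of RPB2 was higher at occupied members by 2.40 ± 0.079 (SD, n = 2 libraries), and that of input by 0.07 ± 0.076. RPB2 coverage was thus an order of magnitude below Pol III coverage and went with it. The antibodies differ, so this does not compare amounts of the polymerases.

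The highest RPB2 values were at 2 members. tRNA-Trp(CCA) at chr10:90644007-90644378 had 33.4 and 43.8 in RPB2, against 0.489 and 0.613 in input (log2 difference 5.66, SE 0.40, limma adjusted p = 9.44e-08). tRNA-Pro(TGG) at chr14:51710172-51710543, 359 bp from the start of Ang, the gene of angiogenin, a ribonuclease that can cut tRNAs, had 50.01 and 28.4, against 0.613 and 0.696 (5.50, SE 0.39, limma adjusted p = 9.44e-08). The tRNA-Trp gene lies 9398 bp from the nearest annotated start of a protein-coding gene. The one unoccupied member above input for RPB2 was tRNA-Ala(AGC) at chr4:132071773-132072144, with 1.98 and 1.61, against 0.798 and 0.322 in input (adjusted p = 0.0351).

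H3K4-titled signal was above input at 41 members and below at 5 (61.3% and 5.83% of all stretches). Of the occupied members 36 of 38 were above, against 5 of 36 unoccupied ones. Mean coverage was 11.4 and 16.9 at occupied members, against 0.144 and 0.272 at the others, of which 18 and 13 were at 0. The median log2 level was higher at occupied members by 7.15 ± 0.85 (SD, n = 2), a size that the pseudocount sets in part, being 7.90 with it halved and 6.33 with it doubled. The H3K4-titled background used as scale was very low, 0.0611 and 0.124 reads per base, against 0.766 and 0.994 in input, so that 1 read weighs heavily. The 5 unoccupied members called above had no more than 1.80 reads per base, and all 5 were below input with file totals as scale.

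The largest H3K4-titled difference was at the same tRNA-Trp gene, with 32.4 and 70.97, against 0.489 and 0.613 in input (log2 8.82, SE 0.40, limma adjusted p = 4.42e-11). A moderately loaded tRNA-Phe(GAA) at chr14:118488597-118488969 had 49.5 and 60.2 at a Pol III mean of 41.8. Loaded genes with little of this signal lay on chromosome 19. tRNA-Lys(TTT) at chr19:12084036-12084408 had a Pol III mean of 62.8 and 0.107 and 0.592 in the H3K4-titled libraries (limma adjusted p = 0.0701). The Phe gene at chr19:12076576-12076948 had a Pol III mean of 50.9 with 0.204 and 0.792. The Phe gene counts among the 36 called above (log2 1.53, limma adjusted p = 0.00539), though its coverage lay below that of input, 0.898 and 1.25. Between these Lys and Phe genes, tRNA-Lys(TTT) at chr19:12080379-12080751, identical in gene sequence to the other Lys gene, had 12.8 and 15.3 at a Pol III mean of 75.6. The gene and the mean Pol III level were thus alike at the 2 Lys places and the H3K4-titled signal was not. Fractional bases made up 20.4% at chr19:12080379-12080751 and 17.3% at chr19:12084036-12084408, so their Pol III means may share reads. Pol III coverage of the 5′ and 3′ flanks was not alike, with 77.5 and 52.8 at the former and 19.7 and 89.65 at the latter. The other occupied member not called was tRNA-Pro(CGG) at chr17:23677732-23678103, the weakest of the 38.

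H3K36-titled signal was above input at 0 members and below at 1 by limma (2.44% and 3.76% of all stretches), with 18 members at an unadjusted p under 0.05. With file totals as scale it was above at 6 and below at 23 (6.39% and 38.2% of all stretches). Mean coverage was 0.325 and 0.162 at occupied members, against 0.442 and 0.298 at the others. With 60.6 and 30.2 read equivalents over the 38 occupied members, of which 8 and 17 were at 0, differences at single genes were hardly detectable at this depth.

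**Figure D4:**
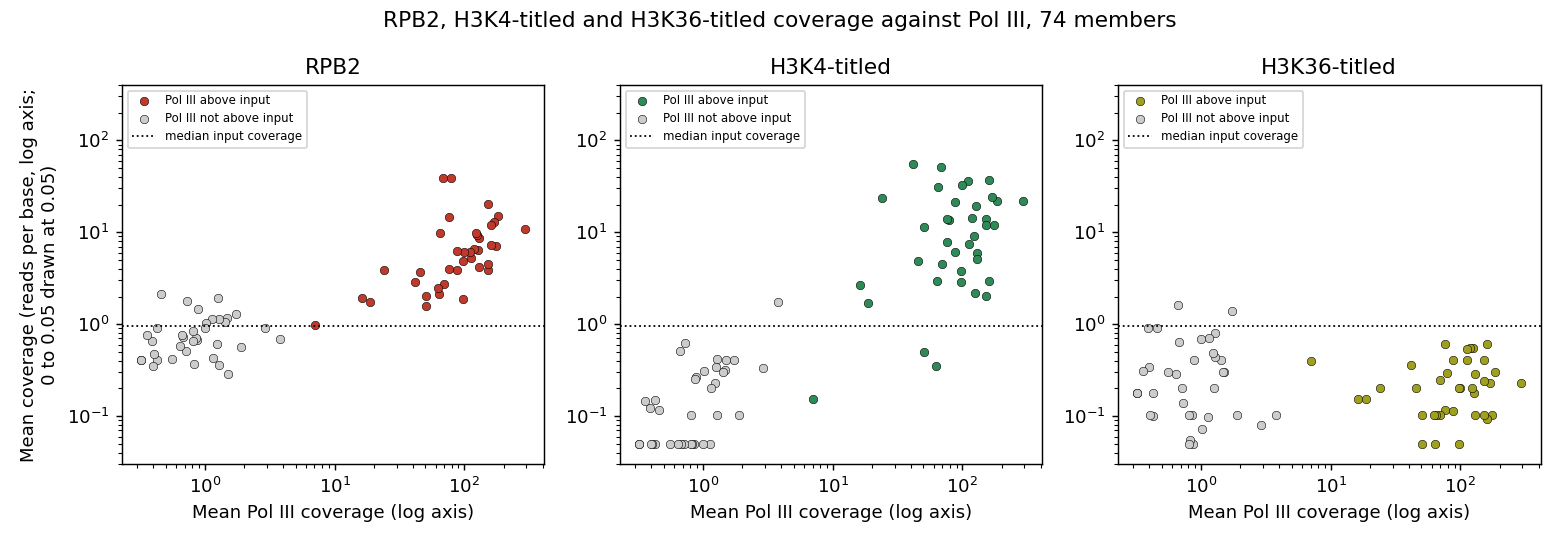
Mean coverage (reads per base, log axes) of RPB2, H3K4-titled and H3K36-titled libraries, n = 2 each, against mean Pol III coverage, n = 4, for the 74 members. Coloured points are the 38 occupied members, of which 32 were above input for RPB2 and 36 for H3K4-titled, and the dotted line is the median input coverage.

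Among the 38 occupied members alone the measures were graded to different degrees. Spearman's rho across genes was 0.651 between Pol III and RPB2, 0.526 between RPB2 and H3K4-titled, 0.262 between Pol III and H3K4-titled, and 0.282 between Pol III and input. These genes share libraries and base composition, and the values are descriptions.

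6 members lay within 1000 bp of an annotated start, those of Agbl5, Rab11a, 0610011F06Rik, Lta4h, Ang and Ppp6r3, at 107 to 514 bp. All 6 were occupied, and all 6 were above input for RPB2 and H3K4-titled, against 32 of 68 members farther away for Pol III, 27 for RPB2 and 35 for H3K4-titled. The median log2 level near starts minus that of the other members was 5.32 ± 0.241 for Pol III (SD, n = 4 libraries), 2.22 ± 0.041 for RPB2 and 5.29 ± 0.379 for H3K4-titled (SD, n = 2 each), beside 0.06 ± 0.274 for input. The members farther away include all 36 unoccupied ones. Among the occupied members alone, a comparison added after these values had been seen, the difference was 0.42 ± 0.144 for Pol III (SD, n = 4), 0.79 ± 0.094 for RPB2 and 1.38 ± 0.246 for H3K4-titled (SD, n = 2 each), beside -0.02 ± 0.331 for input. Among the other stretches of this length 19 of 20 near a start were occupied.

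The place of the signal along the gene differed between the RPC1 and RPC4 libraries. In the direction of the tRNA, the median summit at occupied members was 6.08 and 5.25 bp behind the first base of the gene in RPC1 libraries and 49.0 and 50.5 bp behind it in RPC4 libraries. RPC1 was higher in the 5′ than in the 3′ flank at 27 and 29 of 38 members, and RPC4 at 15 and 9. The 38 include members with another covered stretch 44 to 85 bp away, whose flanks may hold signal of that neighbour in any library. Its share was not tested. The median log2 difference of the flanks, 5′ minus 3′, was 0.73 ± 0.090 for RPC1 and -0.38 ± 0.244 for RPC4 (SD, n = 2 each), beside 0.23 ± 0.089 for input. Across the 38 genes RPC1 and RPC4 ranked members alike (rho 0.955).

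RPB2 leaned upstream about as RPC1 did. Its median summit at occupied members was -11.9 and -3.28 bp from the first base of the gene. The median log2 difference of its flanks was 0.68 ± 0.148 (SD, n = 2), beside 0.73 ± 0.090 for RPC1. Mean RPB2 coverage was 11.3 and 10.9 in the 5′ flank, 8.69 and 8.02 over the gene and 5.33 and 4.34 in the 3′ flank. RPB2 was higher in the 5′ flank at 25 of 38 members in each library. H3K4-titled signal had a trough over the gene, with 16.3 and 24.98 upstream, 4.34 and 7.02 over the gene and 9.94 and 13.7 downstream. Input was nearly level, at 1.15 and 0.994 upstream, 0.994 and 1.00 over the gene and 1.04 and 1.05 downstream.

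**Figure D5:**
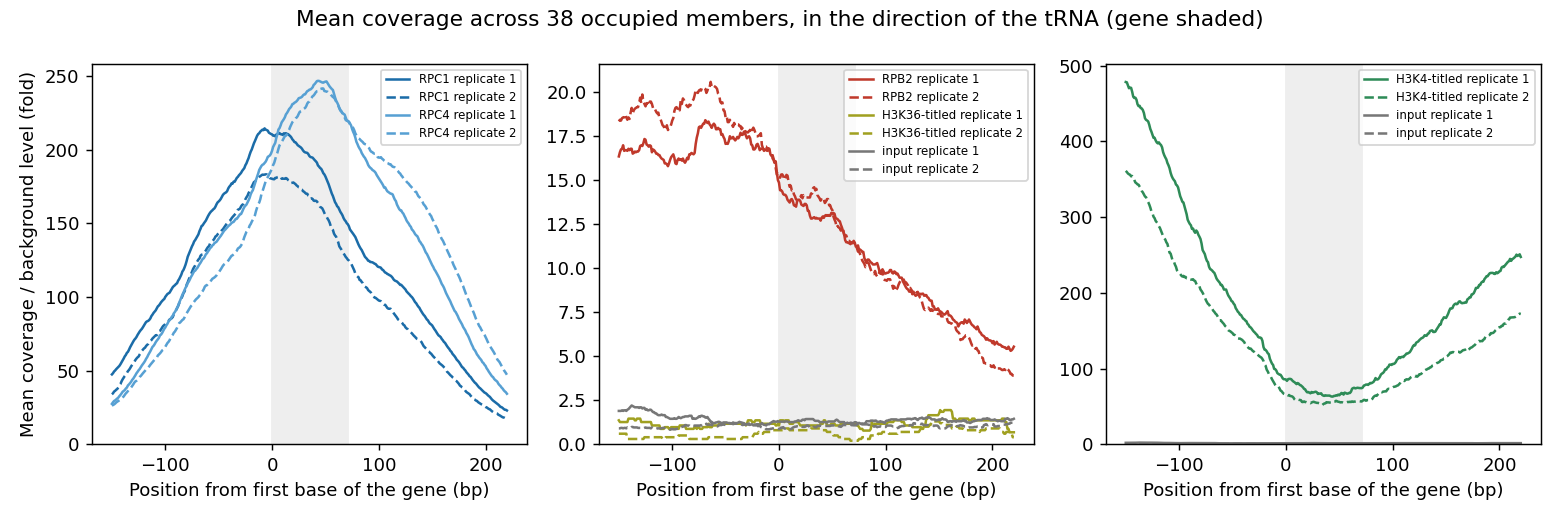
Mean coverage of the 38 occupied members divided by each library's background level (fold), from 150 bp before to 220 bp behind the first base of the gene (shaded), in the direction of the tRNA. RPC1 peaks near the gene's start and RPC4 farther into the gene, RPB2 declines along the gene, and H3K4-titled signal is lowest over the gene while input stays flat.

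RPC1 and RPC4 were also compared gene by gene. limma with all 12 libraries called 0 of 74 members different (0% of all stretches in each direction), with 2 members at an unadjusted p under 0.05. A fit of the 4 Pol III libraries alone called 7 members, all higher in RPC4, beside 6.95% of all stretches, which were also all higher in RPC4. The leading one was tRNA-Ala(AGC) at chr19:3576113-3576485, with 27.9 and 21.3 in RPC1, against 59.1 and 72.9 in RPC4 (log2 difference -1.01, SE 0.22, limma adjusted p = 0.000847 in that fit), next the tRNA-Ala(AGC) on chromosome 5 (-0.79, adjusted p = 0.00458). The median difference was -0.25 over the members and -0.25 over all stretches, and 0.002 over the members with file totals as scale, so that the size of the shift went with the scale.

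Whether the members as a class lay above or below the other stretches depended on the measure and on the stretches they were set against. Their median log2 level minus that of the other stretches was -0.48 ± 0.178 for Pol III (SD, n = 4), beside -0.17 ± 0.061 for input (SD, n = 2). Against the stretches of the same length only, it was 0.92 for Pol III, and without stretches over 10% fractional bases 0.60. Mean Pol III coverage was 47.1, 33.6, 62.3 and 67.6 at the members in the RPC1 and RPC4 libraries, against 36.9, 26.3, 48.9 and 51.6 at the other stretches. Members held 14.8, 14.8, 14.9 and 15.3% of all coverage in the RPC1 and RPC4 files, against 10.5 and 10.8% in input.

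The number of members called depended on the scale. With each file's total as the scale, so that a call compares shares of a file and not levels over background, 28 members were above and 36 below for Pol III (28.6% and 55.3% of all stretches), 9 and 26 for RPB2 (10.3% and 47%), and 16 and 38 for H3K4-titled (15.6% and 59.2%). All 28 were among the 38. The 10 occupied members not called then had a Pol III mean of at most 75.96 reads per base, and 3 of them, the weakest, were called below input.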

How the data were processed

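Liver chromatin was immunoprecipitated and sequenced, per the labels' protocols, with library fragments of about 250 bp and 15 PCR cycles. The deposited files hold coverage per base, a signal with no sign of scaling for depth, since a lone read adds 1 over 76 bp. The build is mm9, per the submitters' processing notes, and the aligner is not given in the sources used here. 302 of the 532 stretches, 34 of them members, hold some fractional values, as reads divided among places would give.

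Abutting lines were joined into stretches, and mean coverage per stretch was computed. Genes were placed by a cloverleaf search in the NCBIM37 (mm9) sequence that required at least 17 of 21 stem pairs. It also required all, or all but 1, of these features: T behind the first stem, T before the anticodon, TTC starting the T-arm loop. The last of these overlaps the B box. limma 3.58.1 in R 4.3.3 was run with a mean-variance trend on log2(scaled coverage + 0.597), with 1 coefficient per group, 12 libraries and 6 residual degrees of freedom, with no filter on low values, two-sided, adjusted over 532 stretches at 0.05. Scale factors were 10% trimmed means (trim 0.1) over 102 background stretches, 5S genes left out. The functions were tested on simulated data. Groups came from the titles.

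The members, the lists and the tests were chosen with earlier results of these data known. Members named in the text are those with the highest and lowest values of each measure, the highest of each amino acid, and the sets of identical genes. Others are named as chosen for their sequence after their values were seen: the pairs with substitutions. Alternatives were other scales, background shares, pseudocounts, filters, windows and left-out libraries.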

Additional observations from a re-analysis of the deposited data

How the results depend on the processing

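All 38 Pol III calls were kept when any single library was left out, when the groups compared were fitted alone, with either pseudocount and with either background share. 2 further members, tRNA-His(GTG) on chromosome 4 and tRNA-Lys(TTT) on 7, were gained with the 10% share, coverage as deposited, array weights, the groups compared alone or without either H3K4-titled library, the His gene also with the central 150 bp, and tRNA-Ala(CGC) on 4 without input replicate 1. File totals kept 28, median-of-ratios scaling 34 and the central 150 bp 37. Leaving out stretches with over 10% fractional bases left 25 above for Pol III and 27 above and 3 below for H3K4-titled. Members below input for Pol III were 36 with file totals, 27 with median of ratios, 1 with coverage as deposited and 1 with the 40% background share. RPB2 was above at 9 and below at 26 with file totals, 18 and 6 with median of ratios, and below at 2 as deposited. H3K4-titled was above at 16 and below at 38 with file totals, 25 and 24 with median of ratios, and below at 21 as deposited, 3 with the 10% background share or the doubled pseudocount, 1 without low stretches or with array weights and 9 in the fit of the groups compared. H3K36-titled was above at 6 and below at 23 with file totals, 7 and 5 with median of ratios, and below at 40 as deposited, 2 with the 40% share, the halved pseudocount or no low stretches, and 0 with the 10% share, the doubled pseudocount, the groups compared alone, array weights or the central window. RPC1 against RPC4 called 1 as deposited and 7 in the fit of both groups. With file totals, 55.3% of all stretches were below input for Pol III, 47% for RPB2, 59.2% for H3K4-titled and 38.2% for H3K36-titled. For most other settings here no share of all stretches is given, so these counts show the effect of the setting. They are not results about the members. With a library left out, H3K4-titled was below at 2 to 8 members and H3K36-titled above at 0 to 4 and below at 0 to 11. With the replicate number as a block the Pol III count stayed 38. Deviations of same-numbered libraries correlated at -0.118 to 0.133 over 15 pairs of groups, so the numbers were not taken as pairs.

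Of the class differences, members minus others became 0.604 for Pol III, -0.516 for H3K4-titled and 0.009 for input without fractional stretches, and 0.92, 0.394 for RPB2 and 0.534 for H3K4-titled against the same length. Occupied minus unoccupied members for RPB2 was 2.619 and 2.061 with the halved and doubled pseudocount and 2.582 without fractional stretches, where input was -0.048. With the occupied set from file totals H3K4-titled was 5.943 and input -0.045. The difference near starts was, among occupied members only, 0.422 for Pol III, 0.794 for RPB2 and 1.384 for H3K4-titled, and over all members 4.576 for Pol III, 1.758 for RPB2 and 4.765 for H3K4-titled at 2000 bp, 2.546 for RPB2 at 500 bp, and 2.343 and 2.018 for RPB2 with the halved and doubled pseudocount. Over all predicted members the flank difference was 0.275 for RPC1, 0.433 for RPB2, 0 for H3K4-titled and 0.137 for input.

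Single called members turned sign with file totals. For Pol III these were tRNA-Phe(GAA) on chromosome 14 (-0.06) and on chromosome 17 both tRNA-Lys(CTT) genes of the 42.2% fractional pair (-1.09 and -1.01) and tRNA-Pro(CGG) (-1.36). For RPB2 they were tRNA-Ala(AGC) on chromosome 4 (-0.14) and 19 (-0.09), tRNA-Ala(TGC) on 5 (-0.43), tRNA-Lys(CTT) on 9 (-0.27), tRNA-Phe(GAA) on 14 (-0.48) and tRNA-Thr(CGT) on 16 (-0.22). For H3K4-titled they were tRNA-His(GTG) on 2 (-0.44), tRNA-Asp(GTC) and tRNA-Asn(GTT) on 5 (-0.70 and -0.88), both tRNA-Ala(TGC) on 5 (-0.59 and -0.20), tRNA-Lys(CTT) on 9 (-0.22), tRNA-Arg(CCT) and both tRNA-Lys(CTT) on 17 (-1.50, -1.46 and -1.01), tRNA-Ala(AGC) on 4, 10 and 19 (-0.77, -1.41 and -0.20), tRNA-Glu(TTC) on 9 (-1.81), tRNA-Thr(CGT) on 18 (-1.56) and both tRNA-Phe(GAA) on 19 (-1.43 and -1.44). With coverage as deposited, H3K4-titled turned at tRNA-Glu(TTC) on 9 (-0.33), tRNA-Ala(AGC) on 10 (-0.83), tRNA-Thr(CGT) on 18 (-0.90) and both tRNA-Phe(GAA) on 19 (-0.70 and -0.80). The cause was not tested. Input and H3K36-titled depth, a few reads per member, limits all differences of low members.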
